A study of Mus musculus with 14 samples.

Results

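The ureteric bud libraries compared MEK1/2-deficient with control ureteric bud cells of the mouse kidney at E12.5 of embryonic development. All 8 libraries whose labels name the ureteric bud were taken, 4 control and 4 double-knockout (dko), out of 14 in the series, and every gene of their count table was used. Each library was made from both kidneys of 1 embryo, dissociated and sorted by fluorescence for GFP. All 8 embryos carried the HoxB7Cre-GFP transgene, in which the Hoxb7 promoter drives Cre recombinase and GFP in the Wolffian duct and the ureteric bud that grows from it. The dko embryos were HoxB7Cre-GFP;Mek1fl/fl;Mek2-/-. Control libraries 1, 3 and 4 came from HoxB7Cre-GFP;Mek1fl/+;Mek2+/- embryos and control library 2 from a HoxB7Cre-GFP;Mek1fl/+;Mek2+/+ embryo, so the controls also carried Cre and 1 floxed Mek1 allele. Mek1 was thus deleted only where Cre acts, whereas Mek2 was missing from the whole dko embryo. The paper's methods also list bud controls with no floxed Mek1 allele, a genotype given for none of these 4 controls. All embryos were of a mixed C57BL6/Rcc-129/SvEv background. The number after the library code in the titles was shared by dko libraries 1 and 2 and by control libraries 2 to 4, and by no control and dko library. Its meaning is not given, and whatever it marks cannot be told apart from the genotype.

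MEK1 and MEK2, encoded by Map2k1 and Map2k2, are the kinases that phosphorylate and activate the ERK kinases. In the ureteric bud the receptor tyrosine kinase RET, bound by GDNF from the surrounding mesenchyme, is a main input to this cascade, and its transcriptional outputs include the ETS factors Etv4 and Etv5 and the feedback inhibitors of the Sprouty and Dusp families. Cells at the bud tip divide, respond to GDNF and branch, while their descendants in the stalk and trunk go on to form the collecting duct with its principal and intercalated cells.

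Counts per library totalled between 4857053 and 7493144, and genes with at least 1 count numbered 19275 to 21250 in the controls. Dko libraries 1 and 3 had fewer, 17348 and 17295, while dko libraries 2 and 4 had 19860 and 20585. By Xist and Y-linked counts, 2 of the 4 controls and 1 of the 4 dko libraries were female. A single ribosomal RNA gene, Gm42418, took 32.5% of the counts of dko library 3 and 3.26% to 4.65% elsewhere. Mitochondrial ribosomal RNA took 1.05% to 1.37% in the controls and 1.40%, 6.40%, 7.02% and 3.23% in dko libraries 1 to 4. The composition of the dko libraries thus differed, its part in the results below was not tested, and values are given library by library. Level values below are normalized counts, that is counts scaled by TMM factors to a common library size, listed for control libraries 1 to 4 against dko libraries 1 to 4. Fold changes are log2 values of dko over control (log2FC) with their standard error (SE), and adjusted p is that of edgeR's quasi-likelihood test over all 13425 genes that passed the filter on low counts. A gene is said to have risen or fallen where adjusted p was below 0.05. Of all tested genes, 2.70% rose and 1.24% fell, and counts of list members below are to be set against these shares. Likewise, 8.19% had every dko library above every control library, and 7.06% had every one below. Each test was repeated 8 times, leaving out 1 library at a time. In bulk samples, fewer cells of a type and less RNA per cell cannot be told apart.

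The sorted cells carried ureteric bud transcripts throughout. The 25 markers of ureteric bud epithelium summed to 34460 to 38370 normalized counts in the controls and to 33730, 30615, 37326 and 32481 in dko libraries 1 to 4. None of the 25 was at 0 in a whole group. But 7 of the 25 passed the test, 2 higher and 5 lower in the dko libraries, so the sum does not show opposite changes of single markers. Ret, Etv5, Ccnd1, Slc40a1 and Igfbp5 are among those that passed. Members were chosen with earlier results of these data known, so this count is a description. The summed markers of nephron progenitors came to between 70.2 and 173 normalized counts in the controls and to 249, 50.8, 188 and 66.9 in the dko libraries. For stroma the sums were 151 to 476 in the controls and 816, 177, 336 and 214 in the dko libraries. Thus dko library 1 held the highest level of both mesenchymal lists, and Six2, the defining nephron progenitor factor, was at 68.4 normalized counts there and at 0 in the other dko libraries. Endothelial markers summed to 185 to 349 in the controls and to 182, 256, 50.4 and 81.0 in the dko libraries. Leukocyte markers lay at 88.3 to 328 and 101 to 294, podocyte markers at 72.1 to 101 and 63.9 to 155, and neural markers at 48.9 to 97.1 and 59.7 to 182. Erythroid markers reached 343 in control library 4 and no more than 4.05 in a dko library. Of the markers of early nephron structures, which summed to 918 to 1275 and 873 to 995, 1 gene (Dkk1, which is also a Wnt antagonist) passed the test, and no marker of the other lists apart from the ureteric bud list did. The part of these cells in the results below was not tested.

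**Figure D1:**
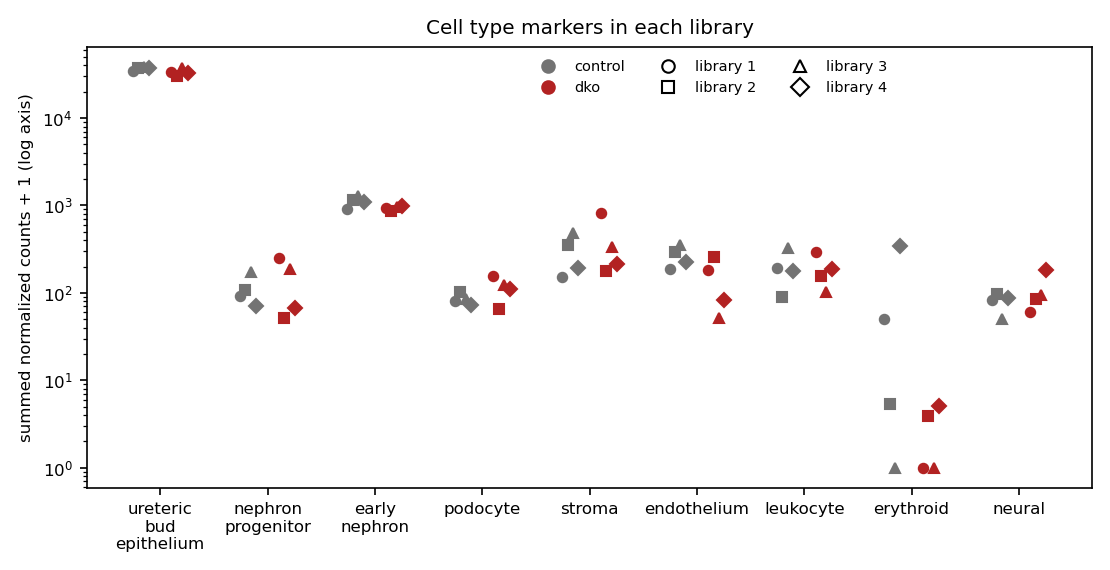
Summed normalized counts of each marker list plus 1, on a log axis, with a point per library, shaped by library number and grey for control or red for dko. The ureteric bud list stands at 30615 or above in all 8 libraries, and the lists of other cell types stay at or below 1275, with dko library 1 the highest for stroma and nephron progenitors.

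With the thresholds of adjusted p below 0.05 and a log2FC of at least 1 in size, 433 genes (3.23% of those tested) differed, of which 301 were higher and 132 lower in the dko libraries. Because the test that chose these genes used the same 8 libraries, their separation between the groups is a description. Of the 301 higher genes, 295, 301, 295 and 301 lay above the highest control value in dko libraries 1, 2, 3 and 4, with median differences from the control mean of 1.24, 1.73, 1.37 and 1.50 on the log2 scale. All 132 lower genes lay below the lowest control value in every dko library, with medians of -1.22, -1.71, -1.48 and -1.48. Over all tested genes, chosen or not, 8.19% had every dko library above every control library and 7.06% had every one below. Dko library 1 had the smallest and dko library 2 the largest median in both directions. The 2 sets differed in gene structure: the higher genes had a median GC content of 43.6% and a median span on the genome of 60.7 kb, the lower genes 52.1% and 15.9 kb, and all tested genes 48.6% and 21.6 kb. GC content and library composition moved with the result, and a fit with offsets for GC content and length gave 400 higher and 199 lower genes, of which 220 and 96 were among those above. Scaling to library size alone shifted the median log2FC over all genes from 0.06 to -0.28 and gave 58 higher and 220 lower genes, so the share of higher calls went from 69.5% to 20.9%, and it was 42.4% with voom and quality weights, which called 1000 genes higher and 1360 lower. The fits without control library 1, 2, 3 or 4 left 106, 40, 59 and 65 genes past both thresholds, that without dko library 4 left 135, and those without dko libraries 1 and 3 gave 986 and 646.

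**Figure D2:**
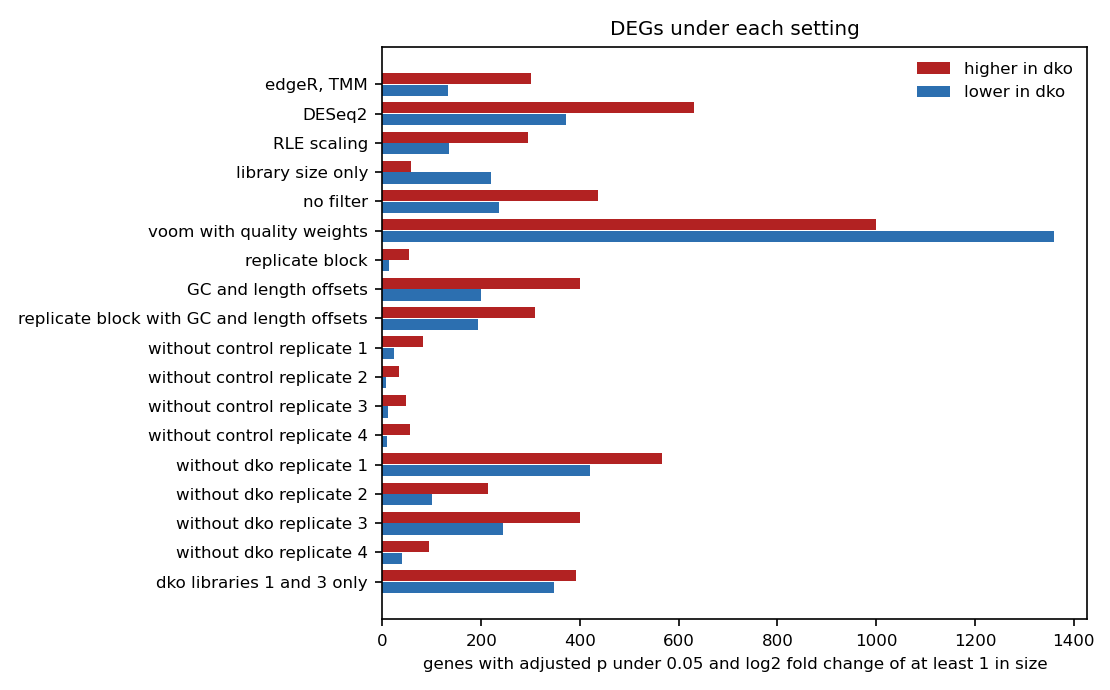
Number of genes past both thresholds in each fit, with red bars for genes higher and blue bars for genes lower in the dko libraries. The fit reported here gave 301 and 132, and the fit without control library 2 gave 33 and 7.

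Of the 528 genes with adjusted p below 0.05, 39 passed in all 8 fits that left out a library, 32 of them higher and 7 lower, and 29 passed under every setting tried. The 7 that were lower were Etv5, Dusp4, Dusp6, Spry1, Ret, Ccnd1 and Plk1, which are an ETS factor, 3 feedback inhibitors of the pathway, the GDNF receptor, cyclin D1 and a mitotic kinase. The 32 that were higher were more varied, and 19 of the 39 stood in none of the gene lists used here. The genes given next were picked after their values were seen. Those in no list included Xkr4, a member of the XK family of membrane scramblases. It had 2.09, 3.50, 0.858 and 0 normalized counts in the controls and 74.0, 110.4, 76.3 and 69.9 in the dko libraries. Xkr4 was nearly absent from the controls and present at a similar level in all 4 dko libraries (log2FC 5.57, SE 0.71, adjusted p = 0.00306). Ccdc141, a coiled-coil protein, does stand in a list, as a stalk gene of the study (below). It had 68.0, 55.1, 52.4 and 63.6 in the controls and 383, 558, 336 and 459.9 in the dko libraries, a 7.26-fold difference with no overlap (log2FC 2.86, SE 0.25, adjusted p = 0.00109). Slc2a3, the glucose transporter GLUT3, had 178, 88.3, 118 and 98.3 against 507, 321, 614 and 441 (log2FC 1.96, SE 0.29, adjusted p = 0.00658), whereas Slc2a1, which encodes the more widespread transporter GLUT1, had 560.5, 871, 1021 and 703 against 886, 379, 575 and 455 and overlapped between the groups (adjusted p = 0.378). Plcb1, a phospholipase that releases inositol phosphates downstream of G proteins, had 65.9, 79.6, 65.2 and 94.5 against 251, 502, 255 and 291 (log2FC 2.09, SE 0.30, adjusted p = 0.00582). Ikzf2, a zinc finger factor of the Ikaros family, had 565, 457, 386 and 407 against 1166, 2565, 1181 and 1746 (log2FC 1.87, SE 0.27, adjusted p = 0.00621). In each of these genes except Slc2a1, every dko library was above every control library.

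**Figure D3:**
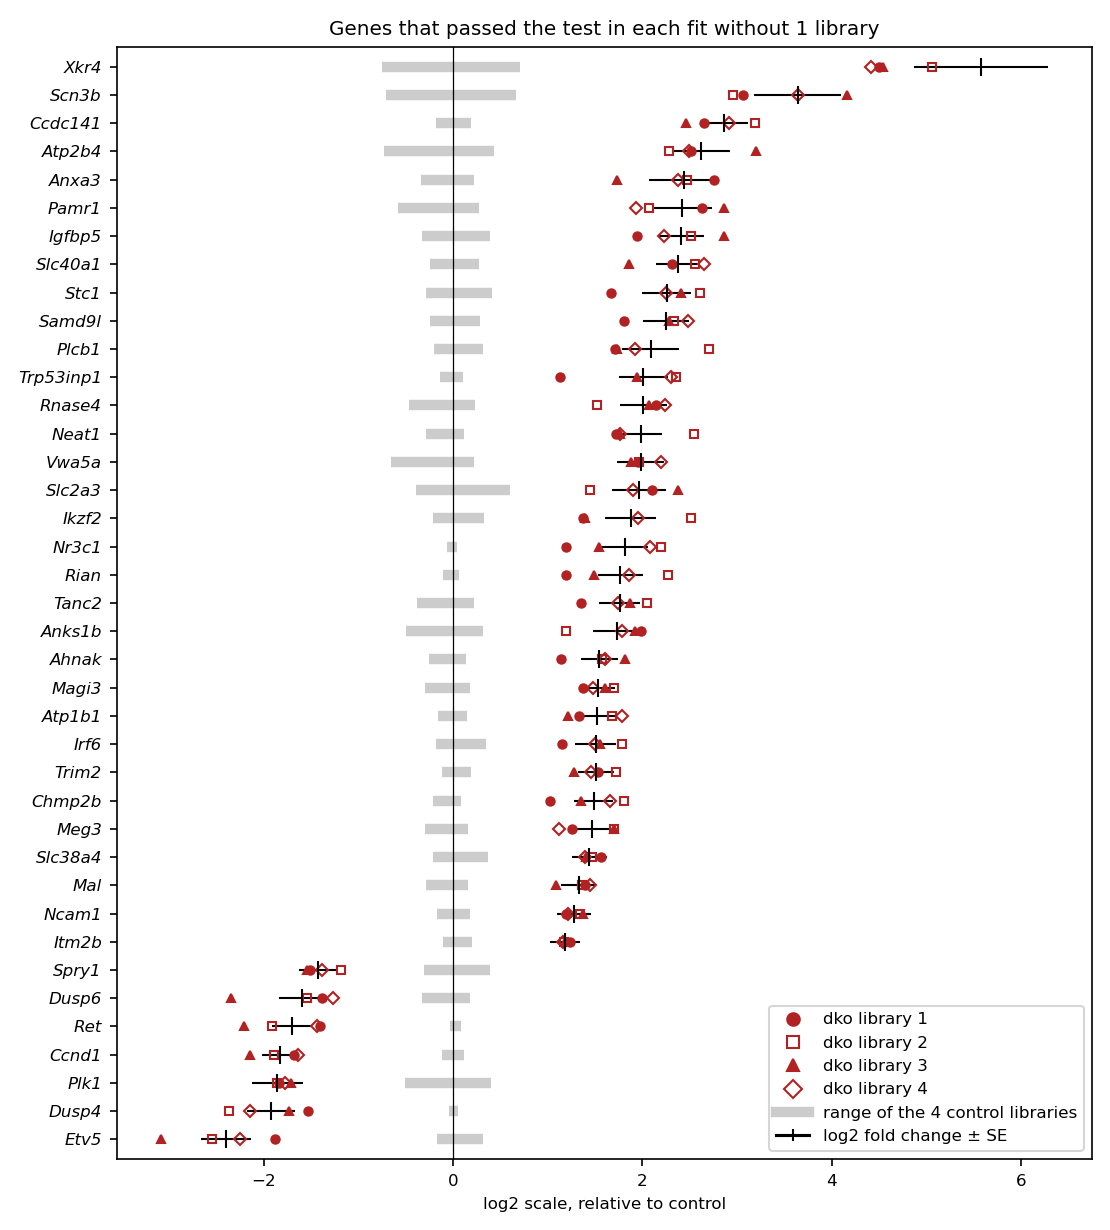
Log2 CPM less the control mean for the 39 genes that passed the test in each of the 8 fits without 1 library, with a red point per dko library, a grey bar for the range of the 4 control libraries and a black mark for the edgeR log2 fold change ± SE. Xkr4 and Scn3b stand furthest to the right and Etv5 furthest to the left, and no dko point touches a control range.

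The 12 largest rises among genes with a mean of at least 100 normalized counts included Scn3b, Kcnh7 and Mapt, picked from the 12 after their values were seen. Scn3b, a beta subunit of voltage-gated sodium channels, had 20.9, 12.2, 6.87 and 13.1 normalized counts in the controls and 119, 110.4, 256 and 178 in the dko libraries (log2FC 3.64, SE 0.46, adjusted p = 0.00306). Kcnh7, a potassium channel, had 229, 136, 117 and 275 against 514, 1764, 907 and 1174 (log2FC 2.52, SE 0.39, adjusted p = 0.00798). Mapt, the microtubule protein tau, had 25.1, 22.7, 14.6 and 12.2 against 162, 81.3, 116 and 80.0 (log2FC 2.55, SE 0.43, adjusted p = 0.0125). The groups did not overlap, and the 3 genes passed in 8, 7 and 5 of the 8 fits without a library. The 8 neural markers summed to 48.9 to 97.1 normalized counts in the controls and to 59.7, 84.2, 94.0 and 182 in dko libraries 1 to 4. Only 2 of the 8 were expressed enough to test and neither passed, and between 2 and 5 were at 0 in each library. Their part in these values was not tested. At the other end, Troap, a spindle protein, had 84.7, 132, 105 and 133 against 21.5, 17.4, 28.6 and 14.2 (log2FC -2.47, SE 0.39, adjusted p = 0.00971). Kank4, a scaffold of the cell cortex, had 117, 98.8, 201 and 118 against 41.4, 34.9, 27.2 and 35.5 (log2FC -1.94, SE 0.36, adjusted p = 0.0172). Both were lower in each dko library than in any control, and they passed in 6 and 3 of the 8 fits.

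Some feedback inhibitors of the pathway were lower. Of 20 tested ERK feedback inhibitors, 6 fell and 0 rose, where 1.24% of all tested genes fell and 2.70% rose. The whole list had a median log2FC of -0.80, against 0.06 over all genes, and its median was -0.81, -1.05, -0.85 and -0.61 in dko libraries 1 to 4 against -0.29, 0.01, 0.21 and 0.02 in control libraries 1 to 4. Dusp4, a nuclear phosphatase that removes phosphate from ERK, had 350.3, 331, 329.6 and 344 normalized counts in the controls and 116, 63.9, 101 and 75.0 in the dko libraries (log2FC -1.92, SE 0.25, adjusted p = 0.00373). Dusp6, the cytoplasmic ERK phosphatase, had 1795, 2398, 2556 and 2376 against 863, 777, 445 and 936 (log2FC -1.59, SE 0.24, adjusted p = 0.00752). Spry1, a Sprouty protein that dampens signalling from RET and FGF receptors, had 1171, 1454, 1909 and 1375 against 508, 638, 499.8 and 557 (log2FC -1.42, SE 0.20, adjusted p = 0.00535). For these 3 genes the lowest control value was above the highest dko value, and they passed in all 8 fits without a library. Spry1 did not pass with offsets for GC content and length (log2FC -0.85, adjusted p = 0.144). Dusp5, Spred2 and Spred3, the last pair being Sprouty-related inhibitors of RAF activation, fell by 1.30, 1.48 and 1.31 on the log2 scale and passed in 2, 5 and 3 of them. Without control libraries 1 to 4 the list gave 4, 3, 3 and 3 lower calls.

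Among 13 tested transcription factors and targets induced by ERK, 5 fell. Etv5 (GRCm38 chr16:22381309-22439719, minus strand) had 997, 1106, 1401 and 1032 normalized counts in the controls and 303, 190.2, 131 and 234 in the dko libraries. Its lowest control value was more than 3 times its highest dko value, in dko library 1 (log2FC -2.40, SE 0.26, adjusted p = 0.00211). Etv4, its closest relative, had 400.5, 596, 500.5 and 412 against 265, 34.9, 50.4 and 79.0, so that dko library 1 stood well above the other dko libraries, and it passed in 1 of the 8 fits without a library (log2FC -2.13, SE 0.52, adjusted p = 0.0438). Of the Myc family, Mycn had 475, 465, 464 and 531 against 307, 174, 179.8 and 126 (log2FC -1.29, SE 0.27, adjusted p = 0.0235). Myc had 398, 557, 746 and 458 against 168, 137, 239.7 and 302 (log2FC -1.35, SE 0.29, adjusted p = 0.0271), both without overlap. This list gave 2 lower calls in each fit without a control library, 3 without dko library 4 and 2 with the replicate number as a block, and Mycn passed in 3 of the 8 fits without a library. Of 20 immediate early genes, which respond within minutes to growth factors and also to tissue dissociation, 2 fell, Egr2 and Egr3. Egr2 had 302, 486, 522 and 516 against 149, 245, 87.2 and 116 (log2FC -1.61, SE 0.32, adjusted p = 0.0208). Egr3 had 74.2, 183, 232 and 225 against 41.4, 72.6, 38.1 and 13.2 (log2FC -2.12, SE 0.51, adjusted p = 0.0427). Control library 1 was the lowest control for both, and the list median was -0.90, 0.13, 0.41 and 0.35 in control libraries 1 to 4 and -0.21, -0.95, -0.14 and -1.27 in dko libraries 1 to 4, where libraries 1 and 3 were among the controls. Egr2 and Egr3 passed in 4 and 2 of the 8 fits without a library. The list gave 1 lower call without control library 1, 0 without control library 2, 3 or 4 or dko library 4 and 0 with the block, but 5 without dko library 1, 6 in DESeq2 and 10 in voom.

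None of the 24 tested components of the RAS, RAF, MEK and ERK cascade passed the test. Mapk3, which encodes an ERK kinase, had 147, 197, 312 and 215 normalized counts against 283, 56.6, 204 and 64.8 (adjusted p = 0.584). Map2k2 had 199.7, 312, 400.0 and 217 in the controls and 282, 43.6, 302 and 65.8 in the dko libraries, so the libraries labelled dko 1 and dko 3 lay within the control range while those labelled dko 2 and dko 4 lay below it (adjusted p = 0.487). Map2k1 had 125, 184, 154 and 159 against 236, 183, 170.2 and 212 (adjusted p = 0.42). Whole-gene counts can include exons that a deleted allele still transcribes, so they do not check the genotype. Counts by exon were not examined, and the cause of the Map2k2 values was not tested. Libraries are named throughout as they were labelled, and the directions given rest on those labels. At an unadjusted p below 0.05, 7 members were higher and 2 lower, DESeq2 called 1 higher, voom 11 higher and 6 lower, and the fit without dko library 1 called 4 higher.

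Genes of GDNF-RET signalling, which acts at the bud tip, were lower: of 18 tested genes 8 fell and 0 rose, and 11 had all dko libraries below all control libraries (7.06% of all tested genes did). Lists here share members, so their counts are not independent. Etv5 is in this list and among the ERK-induced genes above, and Etv5, Ret, Gfra1, Sox8 and Wnt11 are also tip genes of the study. The median log2FC of the list was -1.26, with -0.68, -1.11, -1.54 and -1.03 in dko libraries 1 to 4. Ret itself (GRCm38 chr6:118151745-118197718, minus strand) had 2072, 2052, 2235 and 2066 normalized counts in the controls and 796, 558, 453 and 774 in the dko libraries. The controls lay within a narrow range, and the highest dko value, in dko library 1, was far below the lowest control value (log2FC -1.70, SE 0.21, adjusted p = 0.00306). Its co-receptor Gfra1 had 3408, 3106, 2811 and 3101 against 1799, 1108, 1228 and 1471 (log2FC -1.15, SE 0.19, adjusted p = 0.0118). Sox8 and Sox9, a pair of transcription factors needed for RET signalling in mouse, also fell. Sox8 had 309.5, 377, 296 and 307 against 215, 82.8, 72.2 and 111 (log2FC -1.41, SE 0.33, adjusted p = 0.0406). Sox9 had 922, 1049, 1071 and 1297 against 475, 533, 370.4 and 764 (log2FC -1.02, SE 0.23, adjusted p = 0.035), and dko library 1 was the highest dko library for Sox8 and dko library 4 for Sox9. Wnt11, the ligand of the tip that feeds back on Gdnf, had 336, 466, 512 and 375 against 206, 39.2, 116 and 18.2 and did not overlap, but its dko values ran from 18.2 to 206 and it missed the threshold (log2FC -2.14, SE 0.56, adjusted p = 0.0549). Cxcr4, a chemokine receptor of the tip, had 373, 402, 341 and 366 against 148, 190.2, 31.3 and 199 (adjusted p = 0.0858). The fits without control library 2 or 4 gave 4 calls, those without control library 1 or 3 or without dko library 2 gave 5, and Ret passed in all.

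The study compared the genes that passed its own test of these same libraries with published genes enriched in the bud tip or stalk. All 39 passing tip genes were lower there, and they form the tip list. Almost all passing stalk genes were higher there, and the 78 that were form the stalk list. Members had thus passed a test of these libraries, so their direction and separation here are given as a description. The same limit holds for members that are reported under other lists. Such tip genes include Etv4, Mycn, Ccnd1, Spred2, Frem2, Adamts18, Ctnnd2, Uhrf1 and Kdm2b. Such stalk genes include Slc40a1, Igf1, Shh, Dkk3, Plxna2, Cav1, Cav2, Sparc, Efemp1, Itgb6, Itpr2, Neat1 and Meg3. Of the 38 tip genes tested here, 22 fell, and of the 69 stalk genes, 45 rose. Tip medians were -0.94, -1.80, -1.78 and -1.50 in dko libraries 1 to 4 and stalk medians 1.60, 1.83, 1.98 and 1.74. Dko library 1 had the smallest tip median. Among tip genes, Hs3st3b1, a heparan sulphate sulphotransferase, had 736, 659.5, 791 and 999 against 405, 274, 166 and 297 normalized counts (log2FC -1.48, SE 0.26, adjusted p = 0.0149). Stmn1, a regulator of microtubules, had 431, 436, 500.5 and 418 against 298, 137, 225 and 223 (log2FC -1.01, SE 0.24, adjusted p = 0.0427). Both had no overlap between the groups. Among stalk genes, Trim16, a tripartite motif protein, had 12.55, 5.25, 9.44 and 4.68 against 63.7, 88.6, 102 and 46.6 (log2FC 3.22, SE 0.53, adjusted p = 0.0118). Slco2a1, the prostaglandin transporter, had 38.7, 43.7, 38.6 and 20.6 against 157, 154, 281 and 139 (log2FC 2.36, SE 0.37, adjusted p = 0.00952). Wdr72, a WD repeat protein, was at or below 5.23 in each control and had 57.3, 13.1, 38.1 and 38.5 in the dko libraries (log2FC 3.53, SE 0.88, adjusted p = 0.0475). Without control libraries 1 to 4 the tip calls were 7, 3, 4 and 3 and the stalk calls 16, 7, 12 and 12, without dko library 4 they were 11 and 25, and with scaling to library size alone the stalk calls were 16.

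**Figure D4:**
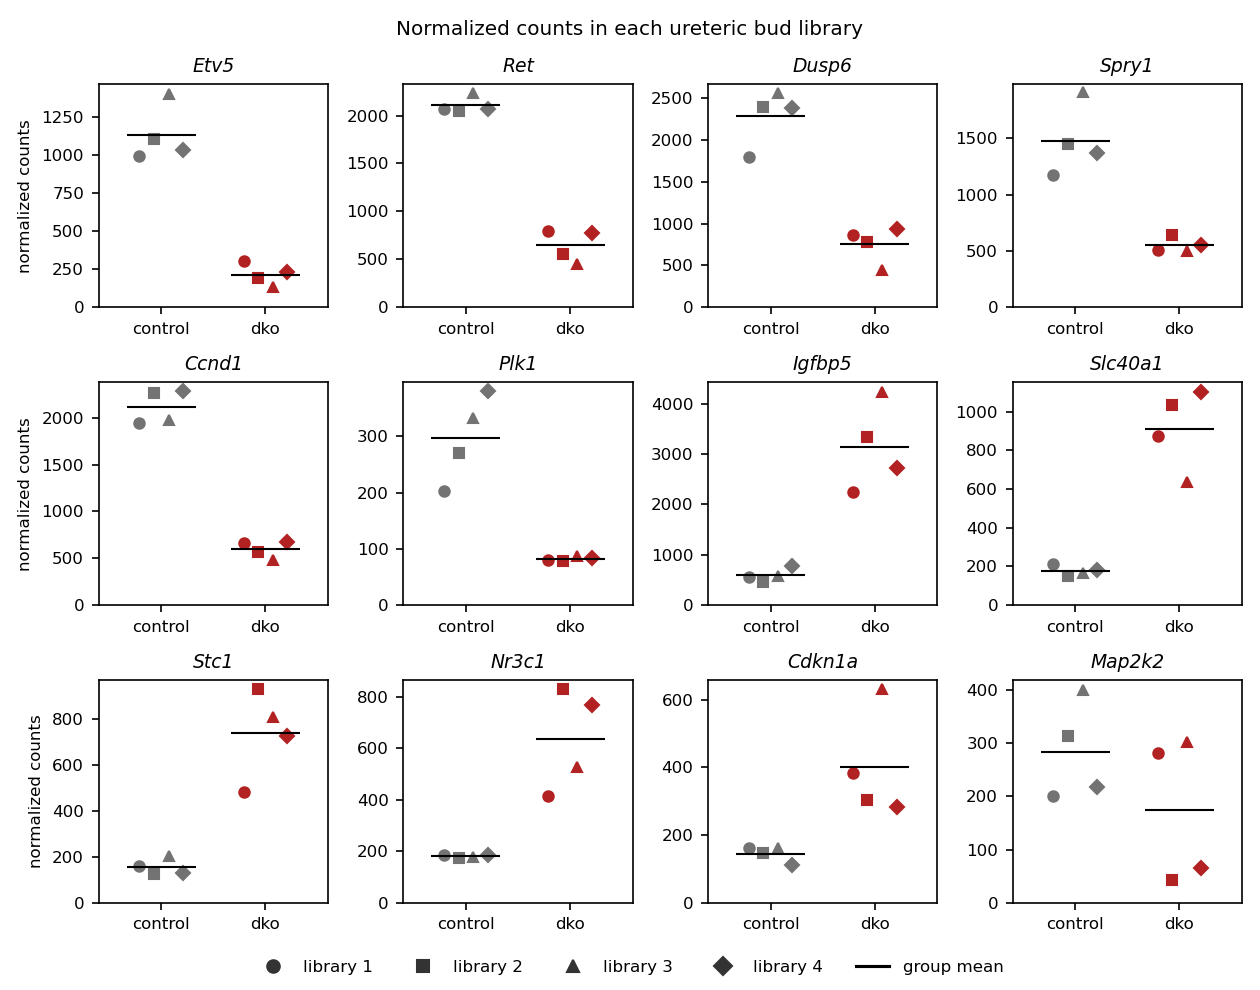
Normalized counts of 12 genes in each of the 8 libraries on linear axes that start at 0, with grey control and red dko points shaped by library number and a line at each group mean. Etv5, Ret and Ccnd1 are lower and Slc40a1, Igfbp5 and Stc1 are higher in all 4 dko libraries than in any control, while Map2k2 is within the control range in dko libraries 1 and 3.

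Several genes of maturing collecting duct epithelium were higher. Of 20 tested genes of principal cells, which reabsorb sodium and water, 6 rose and 0 fell, and 14 did not overlap upward. Of all tested genes, 2.70% rose, 1.24% fell and 8.19% did not overlap upward. But Atp1b1, Nr3c1, Scnn1b, Nedd4l and Elf5, which rose, are also stalk genes of the study, chosen by a test of these same libraries. Their rise is thus given as a description. The list median was 1.15, with 1.26, 1.04, 1.21 and 1.01 in dko libraries 1 to 4. Atp1b1, the beta subunit of the sodium pump, had 483, 508, 547 and 444 normalized counts in the controls and 1240.4, 1580.0, 1145 and 1712 in the dko libraries (log2FC 1.52, SE 0.19, adjusted p = 0.00306). Nr3c1, the glucocorticoid receptor, had 186, 173, 177 and 186 against 414, 832, 528 and 768 (log2FC 1.81, SE 0.24, adjusted p = 0.00408). The 4 controls of each gene lay close together and every dko library was more than 2 times higher, and both genes passed in all 8 fits without a library. Scnn1b, a subunit of the epithelial sodium channel, had 38.7, 64.7, 111 and 74.9 against 263, 119, 370.4 and 181 (log2FC 1.69, SE 0.41, adjusted p = 0.0434), while Nedd4l, the ligase that removes this channel from the membrane, had 646, 606, 495 and 652 against 1542, 1224, 1355 and 1018 (log2FC 1.10, SE 0.19, adjusted p = 0.0134). The transcription factor Tfcp2l1, which is needed for both duct cell types in mouse, rose with 2466, 2209, 2162 and 3117 against 4224, 6114, 5658 and 5946 (log2FC 1.14, SE 0.19, adjusted p = 0.0124), as did Elf5, an ETS-domain factor of principal cells, with 81.6, 81.3, 79.8 and 49.6 against 172, 180.1, 315 and 283 (log2FC 1.70, SE 0.31, adjusted p = 0.0165). The vasopressin-regulated water channel Aqp2 had 0 counts in all 8 libraries, which allows up to 3 counts in each, and its receptor gene Avpr2 had no more than 22.3 normalized counts in any (adjusted p = 0.614). Without control libraries 1 to 4 the principal cell calls were 2, 2, 2 and 3, with library size scaling 1, and with GC and length offsets 13.

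Only 9 of 24 genes of intercalated cells, which secrete acid or base, were expressed enough to test, and 4 of these rose and 1 fell. Rhcg, an ammonia transporter, had 16.7, 15.7, 53.2 and 20.6 against 253, 119, 290.1 and 88.1 normalized counts and every dko library exceeded the highest control (log2FC 2.81, SE 0.53, adjusted p = 0.0172). Car12, a carbonic anhydrase, had 80.5, 110.2, 79.8 and 71.1 against 255, 149.6, 209.7 and 170.2 (log2FC 1.20, SE 0.29, adjusted p = 0.0431). Atp6v1a, a subunit of the proton pump that is also present in all cells, had 395, 459, 285 and 356 against 758, 928, 714 and 848 (log2FC 1.12, SE 0.20, adjusted p = 0.0149). The fourth was Tfcp2l1, named above. Rhcg and Car12 are also stalk genes of the study, so their rise is a description. Foxi1, the factor that specifies intercalated cells, had 13.6, 19.2, 2.58 and 3.74 against 3.18, 52.3, 98.0 and 28.4, so that dko library 1 lay among the controls and the test was not passed (log2FC 2.19, SE 0.94, adjusted p = 0.204). Kit, a receptor tyrosine kinase, was the member that fell, with 433, 443, 392 and 465 against 130.5, 222, 200.2 and 161 (log2FC -1.28, SE 0.22, adjusted p = 0.0134). In each fit that left out a control library, at most 1 member was called higher, and Kit did not pass. Among 11 tested keratin and urothelial genes, 3 rose, Krt80 and Foxq1 among them, and Krt23 fell. Krt80 and Foxq1 are stalk genes of the study as well. Krt80, a keratin, had 7.32, 13.1, 22.3 and 50.5 against 280.1, 78.4, 157 and 66.9 (log2FC 2.64, SE 0.64, adjusted p = 0.0431). Foxq1, a forkhead factor, had 54.4, 58.6, 40.3 and 50.5 against 149, 151, 135 and 112 (log2FC 1.42, SE 0.31, adjusted p = 0.0282). Krt23, also a keratin, had 222, 183, 188 and 278 against 87.5, 66.8, 53.1 and 95.2 (log2FC -1.52, SE 0.30, adjusted p = 0.0194). In each fit that left out a control library, at most 1 member was called higher, and Krt23 did not pass.

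Most transcription factors and adhesion genes that define the ureteric epithelium did not pass the test. Of 23 tested identity genes only Ehf, an epithelial ETS factor, passed, with 184, 126, 126 and 290.1 against 575, 912, 362 and 378 normalized counts (log2FC 1.62, SE 0.36, adjusted p = 0.031), and it did so in 2 of 8 fits without a library. Gata3 had 2205, 2651, 2302 and 2883 against 2699, 4149, 3978 and 3211 (log2FC 0.48, adjusted p = 0.169), Emx2 had 1176, 1462, 1296 and 1675 against 1182, 1217, 1809.8 and 1333 (log2FC -0.02, adjusted p = 0.972) and E-cadherin (Cdh1) had 1691, 1598, 1755 and 1998 against 2744, 2212, 2882 and 2275 (log2FC 0.52, adjusted p = 0.107). Pax2, a transcription factor of the early kidney, had 938, 1592, 1976 and 1464 against 1276, 526, 1510.2 and 569 (adjusted p = 0.337), so dko libraries 2 and 4 lay below every control and libraries 1 and 3 did not. The fit with GC and length offsets called 10 identity genes higher and 1 lower.

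Individual junction and matrix genes changed in both directions. Of 34 junction genes, 3 rose and 1 fell, where 2.70% of all tested genes rose and 1.24% fell. Cdh6, a cadherin of the early nephron, had 6.27, 7.87, 8.58 and 5.61 normalized counts in the controls and 47.7, 139, 32.7 and 94.2 in the dko libraries (log2FC 3.44, SE 0.58, adjusted p = 0.0124). Cldn8, a claudin of the collecting duct tight junction, had 1468, 1314, 1259 and 1284 against 2567, 6584, 2679 and 5858 (log2FC 1.73, SE 0.30, adjusted p = 0.0135) and the desmosomal cadherin Dsc2 had 379, 295, 287 and 255 against 529, 1175, 647 and 1081 (log2FC 1.50, SE 0.27, adjusted p = 0.0158). In all 3 genes, the highest dko values were those of libraries 2 and 4 and no dko value fell in the control range. Ctnnd2, delta-catenin, fell (log2FC -1.09, adjusted p = 0.029). Of 33 basement membrane and matrix genes, 3 rose and 4 fell. Sparc, a collagen-binding glycoprotein, had 666, 576, 663 and 662 against 1809, 1304, 1812 and 1119 (log2FC 1.24, SE 0.20, adjusted p = 0.0109). Efemp1, a fibulin, had 25.1, 36.7, 22.3 and 35.6 against 169, 139, 105 and 114 (log2FC 2.14, SE 0.36, adjusted p = 0.0124). Col4a5, a chain of collagen IV, had 169, 199, 209 and 222 against 377, 423, 418 and 429.5 (log2FC 1.04, SE 0.19, adjusted p = 0.0168). Those that fell included Frem2, a component of the Fraser complex beneath epithelia, and the secreted proteases Adamts18 and Adamts9. Frem2 was abundant, with 9188, 7849, 9044 and 9489 against 5640.3, 3344, 4028 and 4285 (log2FC -1.04, SE 0.19, adjusted p = 0.0163). Adamts18, which is needed for normal branching in mouse, had 407, 374, 309 and 311 against 134, 115, 38.1 and 109 (log2FC -1.81, SE 0.34, adjusted p = 0.0172). Of the integrins, 1 of 13 rose, Itgb6, an epithelial subunit that activates latent TGF-beta, with 75.3, 65.6, 84.1 and 81.4 against 194, 219, 181 and 162 (log2FC 1.30, SE 0.27, adjusted p = 0.0231). None of the junction, matrix and integrin calls stayed in the fits without control libraries 2, 3 or 4.

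Genes of other signalling systems changed singly. Of 16 tested genes of the insulin-like growth factor axis, 2 rose. Igfbp5, a secreted binding protein for these factors (GRCm38 chr1:72857932-72874884, minus strand), had 560.5, 464, 581 and 768 normalized counts in the controls and 2252, 3346, 4242 and 2732 in the dko libraries, a 5.29-fold difference that passed in all 8 fits without a library (log2FC 2.40, SE 0.24, adjusted p = 0.00128). Igf1 had 31.4, 16.6, 24.9 and 25.3 against 86.7, 405, 102 and 215, again with no overlap (log2FC 3.04, SE 0.51, adjusted p = 0.0124), and did not pass without control library 2, 3 or 4, while the receptor Igf1r had 1728, 1738, 1859 and 1771 against 1413, 1474, 1199.7 and 1190.3 (adjusted p = 0.155). Of 17 tested receptors and ligands in the FGF, ErbB and MET list, which also held Pdgfa and Kit, 4 rose and Kit fell. Kit is the same gene that fell among the intercalated cell genes. Fgfr2, the FGF receptor of the bud, had 1879, 1727, 1989.9 and 2107 against 2986, 3812, 3774 and 3759.5 (log2FC 0.90, SE 0.17, adjusted p = 0.0168). Both ErbB receptors that rose did so without overlap. Erbb4 had 63.8, 63.0, 49.8 and 59.0 against 154, 495, 189 and 406 (log2FC 2.40, SE 0.38, adjusted p = 0.00972). Egfr had 43.9, 63.9, 26.6 and 46.8 against 112, 196, 147 and 166 (log2FC 1.77, SE 0.36, adjusted p = 0.0227). The growth factor Pdgfa, a ligand for receptors on mesenchymal cells, had 190.3, 236, 208 and 254 against 439, 748, 414 and 491 (log2FC 1.24, SE 0.23, adjusted p = 0.0174). No gene of this list passed in the fits without control library 2, 3 or 4, 1 did without control library 1 and 2 did without dko library 4.

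In the Wnt pathway, 3 of 33 genes rose and 2 fell, where 2.70% of all tested genes rose and 1.24% fell. Wls, the carrier that Wnt ligands need for secretion, had 878, 705, 791 and 721 normalized counts against 1432, 2932, 1992 and 2524 (log2FC 1.52, SE 0.23, adjusted p = 0.00752) and passed in 7 of 8 fits without a library. The secreted Wnt regulators Dkk1 and Dkk3 rose by 1.14 and 1.53 on the log2 scale (adjusted p = 0.0481 and 0.0438), while the co-receptor Lrp5 and the nuclear factor Lef1 both fell, by 1.28 on the log2 scale (adjusted p = 0.0366 and 0.0377). Wnt9b and Wnt7b, the ligands of the stalk, did not pass (adjusted p = 0.938 and 0.248). Wnt9b had 508, 649.9, 580.3 and 761 against 939.6, 202, 847 and 387, and Wnt7b had 70.1, 85.7, 123 and 117 against 325, 87.1, 285 and 83.1, both high in dko libraries 1 and 3 and low in 2 and 4. Shh, the hedgehog ligand made by the distal ureteric epithelium, had 34.5, 55.1, 52.4 and 82.3 against 96.3, 331, 278 and 279.6 (log2FC 2.13, SE 0.41, adjusted p = 0.0188) and was the only hedgehog gene of 12 to pass, in 3 of the 8 fits without a library. Of 24 BMP and TGF-beta genes, the receptors Tgfbr1 and Bmpr2 rose. Tgfbr1 had 2341, 1841, 1835 and 1619 against 3334, 6811, 4138 and 6288 (log2FC 1.43, SE 0.24, adjusted p = 0.0125). Bmpr2 had 1675, 1315, 1169 and 1394 against 2027, 4624, 1981 and 3109 (log2FC 1.08, SE 0.27, adjusted p = 0.0484), both highest in dko libraries 2 and 4. Of 33 axon guidance genes 5 rose and 1 fell, among them the receptors Plxna2 (log2FC 1.58, adjusted p = 0.00952) and Epha7 (log2FC 1.50, adjusted p = 0.0109) and the semaphorins Sema5a (log2FC 1.08, adjusted p = 0.0255) and Sema6a, the one that fell (log2FC -1.17, adjusted p = 0.0154). None of 14 Notch and 13 retinoic acid genes passed in the edgeR test. At an unadjusted p below 0.05, 0 Notch genes were higher and 0 lower, and 2 retinoic acid genes were higher and 2 lower. DESeq2 called 1 of each list lower, and voom called 4 and 5. Of the Wnt, hedgehog, BMP and TGF-beta and guidance calls, none stayed without control library 2.

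Genes for the export and reduction of iron were among those that rose. Of 18 tested genes of iron handling, 4 rose. Slc40a1 (GRCm38 chr1:45908068-45926523, minus strand) encodes ferroportin, the only known exporter of iron from mammalian cells. It had 211, 148, 166 and 181 normalized counts in the controls and 878, 1034, 637 and 1105 in the dko libraries, a 5.18-fold difference (log2FC 2.37, SE 0.23, adjusted p = 0.00128), and passed in all 8 fits without a library. Heph, the ferroxidase that works with ferroportin, had 293, 205, 185 and 171 against 431, 402, 389 and 495 (log2FC 1.01, SE 0.23, adjusted p = 0.0313). Slc39a8, an importer of zinc and iron, had 50.2, 49.0, 70.4 and 38.4 against 149.6, 138, 159 and 145 (log2FC 1.51, SE 0.31, adjusted p = 0.0247). Every dko library was above every control library for these 3 genes. The fourth gene to rise was Steap2, a metalloreductase (log2FC 1.27, adjusted p = 0.0406). The transferrin receptor Tfrc had 1703, 1463, 1522 and 1340.0 against 1871, 2842, 1401 and 2721 (adjusted p = 0.192) and the ferritin heavy chain Fth1 had 1531, 1726, 2000.2 and 1895 against 2061, 815, 1781 and 1019 (adjusted p = 0.526). Both overlapped between the groups. Without control library 2, 3 or 4 or dko library 4, Slc40a1 was the only call left.

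Of 16 tested calcium pumps and regulators, 4 rose and 0 fell, and between 2 (without control library 2) and 5 did so in the fits without a library. Atp2b4, a calcium pump of the plasma membrane, had 139, 128, 72.1 and 164 normalized counts in the controls and 697, 591, 1124 and 685 in the dko libraries (log2FC 2.62, SE 0.30, adjusted p = 0.00216). Stc1, stanniocalcin 1, a secreted glycoprotein that regulates calcium and phosphate (GRCm38 chr14:69029238-69041804, plus strand), had 161, 124, 203 and 130.1 against 485, 931, 812 and 727 (log2FC 2.26, SE 0.26, adjusted p = 0.00216). Slc8a1, the sodium-calcium exchanger, had 1666, 1330.4, 1258 and 1459 against 2922, 5383, 3326 and 4315 (log2FC 1.48, SE 0.22, adjusted p = 0.00658). Itpr2, a calcium channel of the endoplasmic reticulum opened by inositol trisphosphate, rose by 1.89 on the log2 scale (adjusted p = 0.0194). For Atp2b4, Stc1 and Slc8a1 the lowest dko value exceeded the highest control value, and the first pair passed in all 8 fits without a library. A pair of annexins, calcium-dependent membrane proteins from outside this list, also rose. Anxa3 had 20.9, 31.5, 24.9 and 31.8 against 193, 158, 94.0 and 148 (log2FC 2.44, SE 0.36, adjusted p = 0.00736). Anxa1 had 11.5, 13.99, 18.9 and 14.97 against 53.3, 179, 157 and 62.8 (log2FC 2.91, SE 0.51, adjusted p = 0.0134), without overlap. Cav1, the structural protein of caveolae, had 28.2, 7.87, 6.01 and 11.2 against 70.0, 113, 181 and 74.0 (log2FC 3.04, SE 0.57, adjusted p = 0.0172), and its partner Cav2 had 32.4, 63.9, 21.5 and 32.8 against 52.5, 203, 218 and 191, with dko library 1 inside the control range (log2FC 2.14, SE 0.49, adjusted p = 0.0366). Neither caveolin passed without control library 2, 3 or 4.

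**Figure D5:**
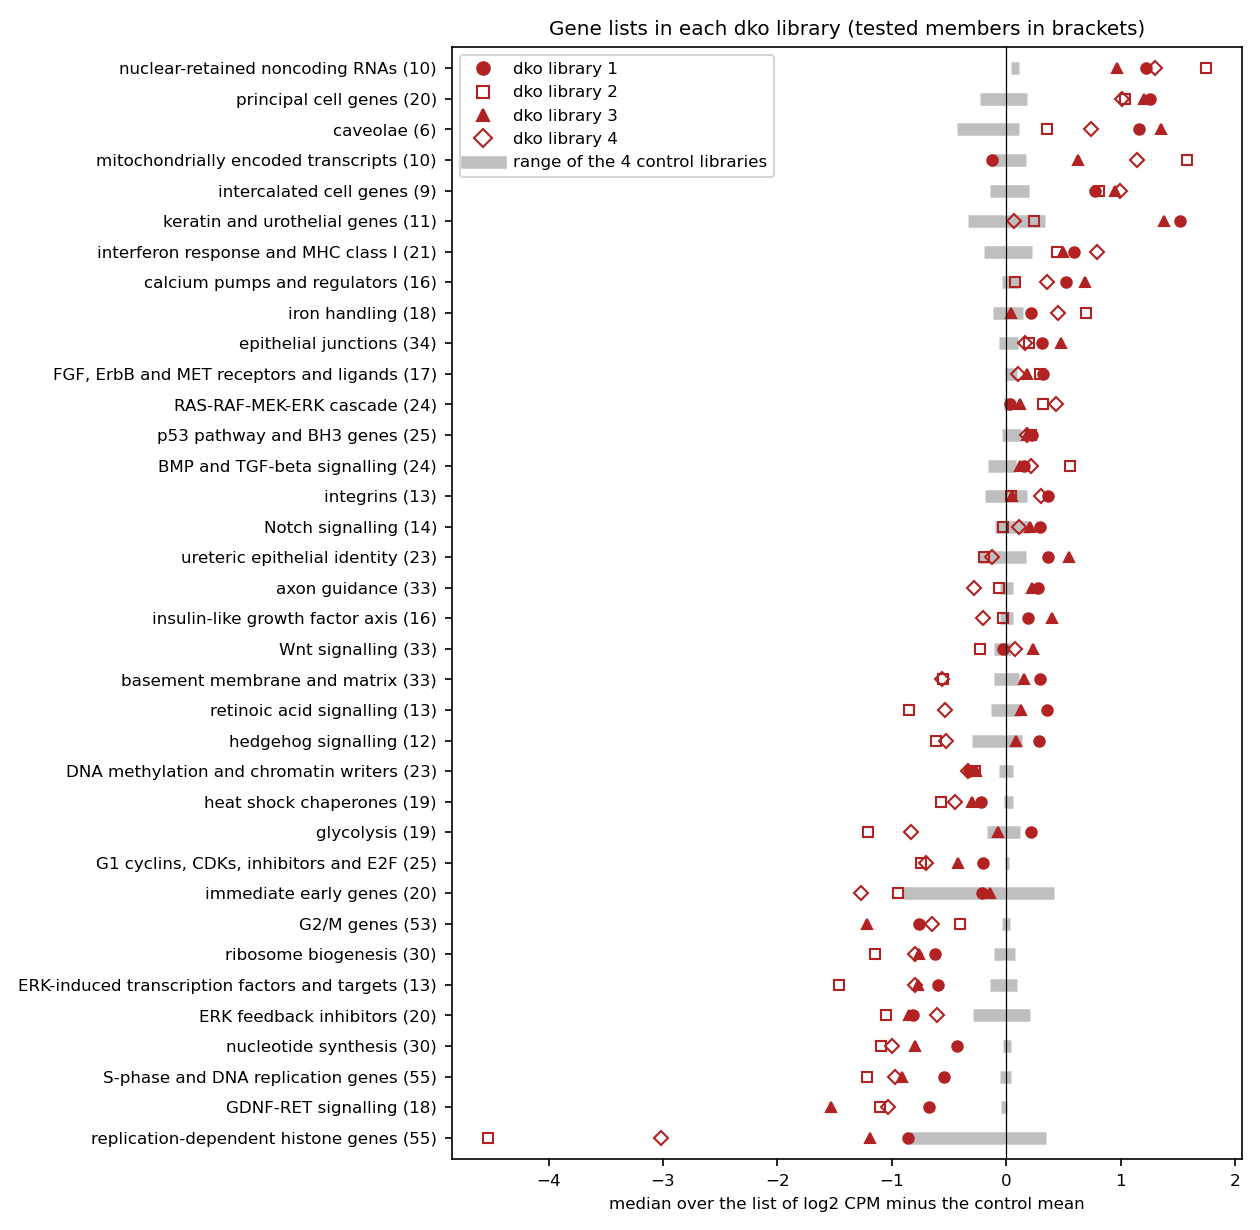
Median over the tested genes of each list of log2 CPM less the control mean, with a red point per dko library and a grey bar for the range of the 4 control libraries. The GDNF-RET and S-phase lists lie left of the control range and the principal cell list right of it in all 4 dko libraries, while for glycolysis dko library 3 is within it and libraries 2 and 4 lie far to the left.

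Many genes of the cell cycle were lower. In the G1 list of 25 tested genes, 5 fell and 3 rose. Ccnd1, cyclin D1, which links growth factor signals to the cycle, had 1949, 2260.2, 1975 and 2288 normalized counts in the controls and 659.6, 568, 477 and 676 in the dko libraries (log2FC -1.83, SE 0.18, adjusted p = 0.00128). The groups were far apart, and Ccnd1 was the call of this list that stayed in every fit without a library. Cyclin E1 (Ccne1) had 215, 208, 173 and 248 against 42.2, 78.4, 106 and 89.1 (log2FC -1.42, SE 0.32, adjusted p = 0.033). The other D-type cyclins did not pass: Ccnd2 had 5243, 4234, 4262 and 4949 against 4001, 4913, 4458 and 5167 (adjusted p = 0.98). Ccnd3 had 238, 373, 402 and 407 against 539, 98.8, 538 and 192 (adjusted p = 0.964). Those that rose were inhibitors of the G1 to S transition. The CDK inhibitor Cdkn1a (p21) had 162, 146, 161 and 111 against 384, 305, 632 and 283 (log2FC 1.46, SE 0.29, adjusted p = 0.0197). Rb1 and Rbl2 are members of the retinoblastoma family. Rb1 had 414, 401, 422 and 360.3 against 693, 1340.4, 636 and 1270.4 (log2FC 1.30, SE 0.26, adjusted p = 0.0211). Rbl2 had 151, 147, 98.7 and 138 against 318, 302, 267 and 231 (log2FC 1.06, SE 0.24, adjusted p = 0.0339). In these 3 genes the groups did not overlap, but none of them passed in a fit that left out a control library.

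All 55 S-phase and DNA replication genes had a log2FC below 0, and 14 fell. For 34 of them every dko library was below every control library. Of all tested genes, 1.24% fell and 7.06% did not overlap downward. Medians were -0.54, -1.22, -0.91 and -0.98 in dko libraries 1 to 4, smallest in dko library 1. Cdc6, which loads the MCM helicase at origins, had 399, 381, 370.0 and 422 normalized counts in the controls and 147, 131, 177 and 168 in the dko libraries (log2FC -1.33, SE 0.20, adjusted p = 0.00772). Tk1, thymidine kinase, had 138, 180.2, 134 and 176 against 43.8, 46.5, 51.7 and 44.6 (log2FC -1.75, SE 0.30, adjusted p = 0.0125). Mcm3, a subunit of the helicase, had 1089, 919, 1000.1 and 845 against 579, 290.4, 278 and 383 (log2FC -1.33, SE 0.25, adjusted p = 0.0168). Of 53 tested G2/M genes, 16 fell and 0 rose. Plk1, the kinase that governs mitotic entry, had 203, 270.3, 333 and 381 against 79.6, 78.4, 87.2 and 83.1 and the 4 dko values were nearly equal (log2FC -1.85, SE 0.26, adjusted p = 0.00582). Kif22, a chromosome-moving kinesin, had 274, 318, 217 and 242 against 94.7, 61.0, 94.0 and 55.7 (log2FC -1.78, SE 0.29, adjusted p = 0.00972). Without control libraries 1 to 4, the S-phase calls were 2, 0, 1 and 1 and the G2/M calls 5, 1, 3 and 2. Without dko library 1 they were 25 and 22, without dko library 4 they were 2 and 9, with GC and length offsets 31 and 35, and DESeq2 called 27 and 19.

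Promoters of the G2/M genes are shown because most of them held the same letters. Many mitotic genes are known to be repressed in resting cells through the CHR element with the letters TTTGAA. In 300-base RefSeq windows (GRCm38.p6, 250 bases before to 50 after the start), these letters or their reverse complement TTCAAA were found in 1104 of the 9505 tested genes with a window (11.6%). They were found in 29 of 45 G2/M genes (64.4%), in 13 of the 15 that fell and had a window (86.7%), and in 4 of 42 S-phase genes (9.52%). The E2F letters TTTGGCGC were found in 7 of 42 S-phase genes (16.7%) and in 1.05% of all, and TTTCCCGC in 6 of 42 (14.3%) and in 2.21% of all. Both strands were searched. The E2F forms can overlap each other, and neither can overlap a CHR match. The 150 bases before the start are given 5′ to 3′ on the strand of the gene for the mitotic kinase Cdk1 (chr10:69352913-69353062, minus strand), the mitotic ubiquitin ligase genes Cdc20 (chr4:118437344-118437493, minus strand) and Ube2c (chr2:164769779-164769928, plus strand), the separase gene Espl1 (chr15:102296143-102296292, plus strand), the helicase subunit Mcm6 (chr1:128359706-128359855, minus strand) and Cdc6 (chr11:98908001-98908150, plus strand). Capitals mark the CHR letters in the first 4 and the E2F letters in the last pair, on either strand.
Cdk1: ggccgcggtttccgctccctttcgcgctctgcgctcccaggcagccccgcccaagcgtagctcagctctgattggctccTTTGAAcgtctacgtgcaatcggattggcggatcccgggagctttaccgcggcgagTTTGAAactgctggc
Cdc20: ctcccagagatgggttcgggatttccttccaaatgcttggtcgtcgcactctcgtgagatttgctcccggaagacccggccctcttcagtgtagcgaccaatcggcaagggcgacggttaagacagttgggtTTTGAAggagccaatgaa
Ube2c: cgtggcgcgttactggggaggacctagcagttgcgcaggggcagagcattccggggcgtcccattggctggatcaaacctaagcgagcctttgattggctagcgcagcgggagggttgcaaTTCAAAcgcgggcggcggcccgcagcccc
Espl1: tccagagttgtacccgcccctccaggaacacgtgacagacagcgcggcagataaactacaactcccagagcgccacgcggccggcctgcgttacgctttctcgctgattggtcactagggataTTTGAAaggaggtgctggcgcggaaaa
Mcm6: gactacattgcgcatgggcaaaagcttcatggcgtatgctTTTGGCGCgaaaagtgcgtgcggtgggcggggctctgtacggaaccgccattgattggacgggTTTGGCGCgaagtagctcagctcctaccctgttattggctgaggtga
Cdc6: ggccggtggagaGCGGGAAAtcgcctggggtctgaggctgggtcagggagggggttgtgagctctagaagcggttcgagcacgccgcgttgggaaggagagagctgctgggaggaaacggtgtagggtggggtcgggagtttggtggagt
All 6 were picked from the genes that fell and held the letters, so their fall says nothing about the letters. Cdk1 had 429.8, 367, 534 and 453 normalized counts in the controls and 204, 209, 283 and 255 in the dko libraries (log2FC -0.91, SE 0.21, adjusted p = 0.0366). Espl1 had 298, 372, 441 and 358 against 111, 65.3, 211 and 110.4 (log2FC -1.56, SE 0.33, adjusted p = 0.0247). Cdc20 had 194, 311, 282 and 306 against 165, 55.2, 87.2 and 44.6 (log2FC -1.62, SE 0.39, adjusted p = 0.0431). Ube2c and Mcm6 fell by 1.30 and 0.83 on the log2 scale (adjusted p = 0.0178 and 0.0376). A match of letters is a description of the window and not a measured binding site.

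Some genes for the supply of histones, nucleotides and ribosomes were lower as well. All 55 tested replication-dependent histone genes had a log2FC below 0, and 6 fell. Their median was -0.86, -4.53, -1.19 and -3.02 in dko libraries 1 to 4, but control library 1 also stood apart from the other controls at -0.84, so that dko libraries 1 and 3 were close to it. Hist1h2bb had 2002, 3078, 3937 and 2372 normalized counts against 1521, 434, 715 and 637 (log2FC -1.78, SE 0.36, adjusted p = 0.0217). These genes are near-identical copies that can share reads, and the calls ranged from 0 without control library 2, 3 or 4 or dko library 4 to 31 without dko library 1. Of 23 chromatin writers, 5 fell, among them the maintenance methyltransferase Dnmt1 with 1671, 1559.6, 1767 and 1981 against 971, 677, 1039 and 726 (log2FC -1.03, SE 0.19, adjusted p = 0.0172) and its partner Uhrf1 with 933, 1131, 1199 and 1359.6 against 601, 398, 569 and 574 (log2FC -1.11, SE 0.20, adjusted p = 0.0152). Of 30 nucleotide synthesis genes, 6 fell, and 16 did not overlap downward, where 1.24% and 7.06% of all tested genes did. Ctps, CTP synthase, had 417, 422, 401 and 388 against 197, 219, 217 and 182 (log2FC -0.9981, SE 0.19, adjusted p = 0.0172), an even change over the dko libraries. Of 30 ribosome biogenesis genes, 29 had a log2FC below 0 and 4 fell, among them Ppan with 128, 185, 177 and 149 against 41.4, 37.8, 62.6 and 69.9 (log2FC -1.59, SE 0.33, adjusted p = 0.0244) and fibrillarin (Fbl) with 275, 318, 286 and 332 against 134, 74.1, 174 and 122 (log2FC -1.26, SE 0.27, adjusted p = 0.0282). In the fits without control library 2, 3 or 4 none of these chromatin, nucleotide and ribosome calls stayed.

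Stress and surveillance genes gave a mixed picture. Of 25 tested p53 pathway genes, 4 rose and 1 fell. Trp53inp1, a p53-induced nuclear protein of growth arrest and autophagy, had 336, 304, 284 and 330.3 normalized counts in the controls and 686, 1609, 1206 and 1553 in the dko libraries and passed in all 8 fits without a library (log2FC 2.01, SE 0.26, adjusted p = 0.00327). Ccng1, cyclin G1, had 323, 278, 332 and 318 against 612, 790.0, 448 and 543 (log2FC 0.93, SE 0.21, adjusted p = 0.0335). Pmaip1, the BH3 protein NOXA, had 19.9, 42.0, 67.8 and 83.3 against 157, 502, 214 and 133 (log2FC 2.23, SE 0.51, adjusted p = 0.0361). The fourth that rose was Cdkn1a, and Aen, a p53-induced nuclease, fell (log2FC -1.31, adjusted p = 0.0437). Mdm2 and Bax, both direct p53 targets, had log2FC 0.22 and -0.54 (adjusted p = 0.579 and 0.54). In the fits that left out a control library, Trp53inp1 was the only call left. Of 21 genes of the interferon response and MHC class I, 3 rose. Samd9l, an antiviral and growth-restraining protein, had 105, 77.0, 77.3 and 111 against 323, 466, 451 and 519.7 and passed in all 8 fits (log2FC 2.25, SE 0.25, adjusted p = 0.00211). Trim12a and Trim12c also rose (log2FC 2.27 and 1.45), but they are similar copies whose reads may have been split between them, and each passed in 3 of the 8 fits. In each fit that left out a control library, and in that without dko library 4, this list gave 1 call, Samd9l. Of 19 heat shock chaperones, Hsph1 and Hspd1 fell (log2FC -0.83 and -0.78, adjusted p = 0.0251 and 0.0443), and neither passed in a fit that left out a control library.

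Among long noncoding RNAs kept in the nucleus, 6 of 10 rose. Neat1, the scaffold of paraspeckles, had 1034, 803, 1046 and 1057 normalized counts against 3234, 5719, 3321 and 3324 (log2FC 1.98, SE 0.23, adjusted p = 0.00216), with dko library 2 well above the other 3. Meg3 and Rian are imprinted and come from one cluster. Meg3 had 294, 380.5, 404 and 381 against 870.4, 1182, 1185 and 789 (log2FC 1.46, SE 0.21, adjusted p = 0.00581). Rian had 346, 317, 345 and 357 against 779.7, 1654, 960.1 and 1243 (log2FC 1.76, SE 0.24, adjusted p = 0.00408). All 3 passed in every fit without a library and had no overlap between the groups. The list gave 3 higher calls in each fit without a control library, 4 without dko library 4, 3 with the replicate block and 2 with library size scaling. Malat1 had 55924, 46218, 45649 and 53120 against 79557, 173220, 117520 and 152390 (log2FC 1.38, SE 0.25, adjusted p = 0.0148), highest in dko libraries 2 and 4, while Kcnq1ot1, another imprinted noncoding RNA, had 3977, 3966, 3652 and 3491 against 2795, 5863, 2345 and 4172 and overlapped (adjusted p = 0.991).

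Of 15 mitochondrially encoded transcripts 10 were tested, all 10 had a log2FC above 0 and 2 passed the test, the ribosomal RNAs mt-Rnr1 and mt-Rnr2. The list median was 0.07, -0.14, -0.12 and 0.17 in control libraries 1 to 4 and -0.13, 1.58, 0.62 and 1.14 in dko libraries 1 to 4, where library 1 was among the controls and the other 3 stood above them. mt-Rnr2 had 49668, 41918, 38535 and 45003 normalized counts against 53446, 322710, 411190 and 138770 (log2FC 2.40, SE 0.49, adjusted p = 0.0231). mt-Rnr1 had 24238, 18301, 18551 and 24715 against 23630, 128810, 304920 and 59449, overlapping in dko library 1 (log2FC 2.59, SE 0.59, adjusted p = 0.0355). Neither passed in a fit that left out a control library or with GC and length offsets (adjusted p = 0.127 and 0.166 for mt-Rnr2 and mt-Rnr1), and 9 of the 10 passed without dko library 1.

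The dko libraries did not move together for every group. The glycolysis list, of which 0 of 19 genes passed in edgeR (2 higher and 2 lower at an unadjusted p below 0.05, and 2 higher and 1 lower in DESeq2), had medians of 0.22, -1.21, -0.07 and -0.84 in dko libraries 1 to 4 against -0.17, 0.07, 0.12 and 0.01 in control libraries 1 to 4. Ldha, lactate dehydrogenase A, had 1934, 2219, 2814 and 2234 normalized counts in the controls and 2603, 873, 1480.3 and 1129.6 in the dko libraries (adjusted p = 0.281), so that dko library 1 lay within the control range and libraries 2, 3 and 4 lay below it. Retinoic acid genes had medians of 0.36, -0.85, 0.13 and -0.53 and matrix genes 0.30, -0.56, 0.15 and -0.56. In these lists, as for Pax2, Wnt9b, Wnt7b, Map2k2 and Mapk3, libraries 1 and 3 stood above libraries 2 and 4. The same split, in pairs of libraries, was seen in the number of genes detected, and its part in these values was not tested.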

How the data were processed

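RNA of sorted ureteric bud cells of 8 embryos was sequenced from one end on a NextSeq with the NuGen Ovation Solo kit, which removes ribosomal RNA after library generation. Per the methods, the authors trimmed reads with Trimmomatic, aligned them with STAR to GRCm38 with a GENCODE annotation, and counted reads per gene with featureCounts. The submitters' processing notes also name HISAT2, HTSeq and DESeq2. The deposited values are raw whole-number counts for 55335 genes, 55154 of which matched GENCODE M21 for coordinates, GC content and length. Replicates were not pooled, and no library was a copy of another (smallest chi-square per degree of freedom 8.47).

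Genes were kept with filterByExpr (minimum count 10, total 15), scaled by TMM and tested with edgeR 4.0.16 (quasi-likelihood, robust, Benjamini-Hochberg adjustment over 13425 genes). Per-library differences are log2 CPM (prior count 2) less the control mean. Alternatives were DESeq2 1.42.0, limma 3.58.1 voom with quality weights, RLE or library-size scaling, no filter, a replicate block, offsets for GC content and length, and each library left out. Script tests on simulated data preceded use. The labels do not say that embryos came from separate litters, so p-values measure the spread between these libraries. Named were the marker genes, Map2k1 and Map2k2, the 12 largest rises and falls with a mean of at least 100 normalized counts, up to 3 called members per direction and list by smallest adjusted p, and members named by role; a few of these are not reported here. Gene lists, members and tests were chosen with earlier results of these data known. Same-numbered control and dko libraries correlated at -0.28 to 0.12 and were not treated as pairs. Promoter sequences are from RefSeq (GRCm38.p6, 27025 genes).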

Additional observations from a re-analysis of the deposited data

Results flagged for a closer look

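Within a group of 4 libraries, the highest or lowest library was set against the others by Dixon's ratio in 300 tests of named values, and 20 were beyond it, where chance gives about 1 in 20. Among the dko libraries, the share of Gm42418 counts was 32.5% in library 3, and in normalized counts Il1rapl1 was at 306, Neat1 at 5719, Epha7 at 578 and Uhrf1 at 398 in library 2, while Fgfr2 was at 2986, Cav2 at 52.5 and Kdm2b at 485 in library 1. Il1rapl1, a synaptic adhesion protein, had 52.5, 306, 64.0 and 42.5 in dko libraries 1 to 4, and its log2FC ranged from 1.97 to 3.35 when 1 library was left out. Among the controls, library 1 was apart for Egr2 (302), Hist1h1d (1389) and Kdm2b (568) and for the median of the histone genes (-0.84 on the log2 scale). Control library 2 was apart for Neat1 (803), Sparc (576) and the BMP and TGF-beta median (-0.16), control library 3 for Ret (2235), Rhcg (53.2) and Epha7 (206), and control library 4 for Mycn (531) and Adamts9 (968).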

How the results depend on the processing

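The counts of genes past both thresholds depended on the setting. Of the 107 named genes only Map2k2 changed sign, at 0.0095 with dko libraries 1 and 3 only. But 105 of them had an adjusted p below 0.05, most were named for it, and few sign changes follow from that choice. Some list medians did change sign. With library size alone the identity list went from 0.21 to -0.20 and the junction list from 0.26 to -0.11. With GC and length offsets the retinoic acid list went from -0.25 to 0.25. DESeq2 gave 1004 genes (632 higher, 372 lower, 1403 at adjusted p below 0.05), and 300 and 132 of them were among the 301 and 132 reported. Library size alone gave 278 (58 and 220, 278), no filter 674 (437 and 237, 917), voom with quality weights 2360 (1000 and 1360, 4667), GC and length offsets 599 (400 and 199, 1369), and dko libraries 1 and 3 only 738 (391 and 347, 1168). RLE scaling gave 429. The replicate numbers did not pair the libraries, and no library pair was closest within its own number. The replicate block left 67 genes (54 and 13, 67), and the block with GC and length offsets gave 501 (1025 at adjusted p below 0.05). Leaving out 1 library gave 40 to 986 genes (33 to 566 higher, 7 to 420 lower, 40 to 1402 at adjusted p below 0.05), lowest without control library 2 and highest without dko library 1. Of 107 named genes, 34 lost the call with library size alone, 73 under the block and 85 without control library 2, but 1 under DESeq2. Fewer samples enter the fits without a library. Other causes were not tested. At totals of 4857053 to 7493144 counts a library, genes with few counts, such as most intercalated cell genes, could not be tested.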
